A study of Mus musculus with 20 samples.

Results

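Irgm1, Irgm2 and Igtp (also called Irgm3) are the regulatory members of the mouse immunity-related GTPases. The 3 genes were chosen with earlier results of these data known. All probes for them were then taken by gene name from single-colour Agilent arrays, whatever their values. They came to 4 probes of 39429 on each array, 2 for Irgm1 and 1 each for Irgm2 and Igtp, and to 3 of 30342 genes or transcripts named on the array. RNA came from mice labelled Irgm1-/- and from wild type (WT) mice, all on the C57BL/6 background and kept free of specific pathogens, on 20 arrays. Salivary gland was taken from 4 female Irgm1-/- mice aged 9 weeks and from 4 female WT mice, of which 2 were 6 and 2 were 7 weeks old. Small intestine, which was whole duodenum, came from 3 Irgm1-/- mice (2 males and 1 female, aged 6, 8 and 6 weeks) and 3 WT females of the same ages. Macrophages isolated from the colon were from the same 6 animals as the small intestine, by the animal numbers that the deposited files carry. Age therefore runs with genotype in salivary gland and sex does so in the other tissues, and neither can be told apart from genotype there, except through the single Irgm1-/- female. The series set out to find interferon-induced genes that differ in several tissues of Irgm1-/- mice. The sources used here do not give which part of Irgm1 was deleted or how the macrophages were isolated.

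Immunity-related GTPases are proteins that interferons induce and that act on membranes around microbes inside cells. Effector members, the GKS class, coat and disrupt the vacuole of an invading parasite or bacterium, together with the guanylate-binding proteins. The regulatory GMS class, to which Irgm1, Irgm2 and Igtp belong and which has a methionine in place of a lysine in the nucleotide-binding loop, sits on the cell's own membranes and holds effectors in the inactive state. Irgm1 is found at the Golgi and lysosomes and has been tied to autophagy and mitophagy, Irgm2 at the Golgi, and Igtp at the endoplasmic reticulum and lipid droplets.

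The probes are shown because each value below is a signal at these bases. Each is 60 bases long, and the first 30 bases are given as deposited, with the start in the transcript that the files name.
Irgm1 probe at 1286: agagaatagccaacgagtccttgaagaatt
Irgm1 probe at 1849: gcattgttccactgagggacagggacaagt
Irgm2 probe at 3321: gtgtcttaggtcatagacatagattttctc
Igtp probe at 1855: atattcaactgtaatagcccgttccttcaa
The Igtp probe was printed 10 times on each array and the others once, so Igtp alone had technical repeats within an array. Signals of different probes are not on one scale, so levels are compared here only within a probe.

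All 3 genes lie on chromosome 11. In the order of genes of the RefSeq table, Igtp and Irgm2 are next to each other with 0 genes between them, Gm12250 (the effector Irgb10) is the neighbour on Igtp's other side, and Irgm1 lies apart from them next to Gm5431, another effector gene. Promoters are shown because the genes differed together in salivary gland. The bases from -100 to -1 before the annotated start site were copied from RefSeq (GRCm38.p6), on the strand of the gene, and all 3 genes matched the table. Capitals mark matches to an ISRE-like motif (GAAA, any 2 bases, then GAAA) and to a GAS-like motif, TTCNNNGAA, the kinds of element found in promoters of interferon-induced genes.
Irgm1 (chr11:48871421-48871520, minus strand): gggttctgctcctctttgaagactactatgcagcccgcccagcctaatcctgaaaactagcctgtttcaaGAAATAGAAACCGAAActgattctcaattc
Irgm2 (chr11:58214877-58214976, plus strand): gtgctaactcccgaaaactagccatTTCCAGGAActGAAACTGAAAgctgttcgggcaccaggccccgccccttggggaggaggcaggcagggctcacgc
Igtp (chr11:58199456-58199555, plus strand): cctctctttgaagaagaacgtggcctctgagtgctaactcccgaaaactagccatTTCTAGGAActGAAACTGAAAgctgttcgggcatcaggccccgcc
Both strands of the whole RefSeq promoter window were searched. Irgm1 held 2 overlapping ISRE-like matches, from -30 to -21 and from -24 to -15. In Irgm2 a match to the ISRE-like motif lay from -64 to -55 and one to the GAS-like motif from -75 to -67. Igtp had the same arrangement, with the ISRE-like match from -34 to -25 and the GAS-like match from -45 to -37. No match to the letters of the GAS-like motif was in the Irgm1 window. Of 32851 promoters of the same length, 3.44% held the ISRE-like motif, 8.3% the GAS-like motif and 0.454% both. Over the aligned windows, Irgm2 and Igtp were identical at 72.8% of positions, Irgm1 and Irgm2 at 47%, and Irgm1 and Igtp at 49.6%. A match is a description of the letters and does not show binding.

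**Figure D1:**
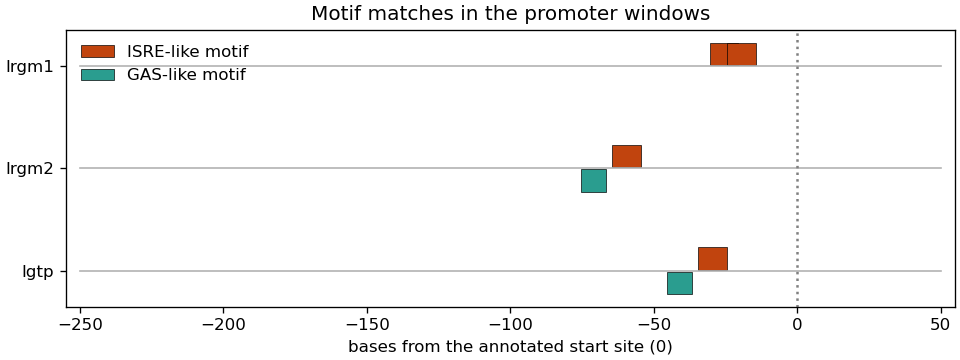
Motif matches in the promoter windows of Irgm1, Irgm2 and Igtp, by distance in bases from the annotated start site (dotted line). The 2 ISRE-like matches of Irgm1 overlap, and Irgm2 and Igtp each have a GAS-like match just upstream of an ISRE-like match.

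Values are log2 of the processed signal minus the 75th percentile of the array, so that 1 unit is a doubling relative to that percentile, and fold changes are Irgm1-/- over WT. In salivary gland that percentile was taken over the probes detected on all 8 arrays, and in the other tissues over all probes. As a measure of array brightness, the percentile over all probes is given for each tissue. It ran from 154 to 1022 on Irgm1-/- and from 130 to 332 on WT salivary gland arrays. In small intestine it ran from 3868 to 4690 on Irgm1-/- and from 2322 to 3204 on WT arrays. On macrophage arrays it ran from 1466 to 1854 in Irgm1-/- and from 922 to 2137 in WT. In small intestine, array brightness thus moved with genotype, and its part in the results was not tested. The 3 tissues went through the scanner on different days, and a tissue cannot be told apart from its scan. The defining markers of the labelled tissue were present in all 3 tissues: 9 to 10 of 10 acinar markers were above background on Irgm1-/- and 8 to 10 on WT salivary gland arrays, 10 of 10 enterocyte markers on every small intestine array, and 8 to 11 of 12 macrophage markers on Irgm1-/- and 10 to 12 on WT macrophage arrays. All 7 goblet cell markers were also above background on every macrophage array. Of 12 T and NK cell markers, 9 to 10 were so on Irgm1-/- and 8 to 12 on WT macrophage arrays. Of 10 acinar markers, 6 to 8 were so in either genotype. Detection alone thus does not set macrophages apart from other cells in these samples. In RNA from bulk samples, fewer cells of a type and less RNA per cell cannot be told apart.

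Irgm1, the gene named in the genotype label, had a higher signal on arrays labelled Irgm1-/- than on WT arrays at both probes in salivary gland, and the difference there passed the test. A probe outside the deleted stretch, whose place is unknown here, would check nothing. In salivary gland the probe at 1849 read 0.44, -0.06, -0.80 and -0.22 on the arrays labelled Irgm1-/-, against -2.86, -2.91, -2.69 and -2.76 on WT arrays. Every array labelled Irgm1-/- stood above every WT array, by more than the spread in either group. The difference was 2.64 (SE 0.233, adjusted p = 0.000549), a 6.25-fold higher signal. At the probe at 1286 the values were -0.98, -1.68, -2.59 and -2.12 on arrays labelled Irgm1-/-, against -4.02, -4.11, -4.11 and -4.18 on WT arrays. Again the groups did not overlap, and the difference was 2.26 (SE 0.298, adjusted p = 0.00437), although the probe was well above background on only 2 of the 4 WT arrays. Of all 13651 probes tested in salivary gland, 2.12% were called higher, and 10.2% had every Irgm1-/- array above every WT array. Within slides, which each held both genotypes, the difference at the probe at 1849 was 3.07 and 2.22, and at the probe at 1286 it was 2.73 and 1.79.

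In small intestine, Irgm1 at the probe at 1849 read 2.16, 2.09 and 2.24 on arrays labelled Irgm1-/-, against 0.96, 1.1 and 0.94 on WT arrays. Both groups were tight and well apart, with a difference of 1.16 (SE 0.137), but the adjusted p of 0.0572 missed the threshold. The call passed with only the probes detected on every array (adjusted p = 0.0482) and with an intensity trend in the variance (adjusted p = 0.0371). It did not pass in the other settings. Adjusted p from limma was 0.13 with normexp background correction, 0.286 scaled to the median and 0.278 with mouse number as a block. Leaving out single arrays gave adjusted p from 0.061 to 0.376. The probe at 1286 was at 0.51, 0.49 and 0.86 on arrays labelled Irgm1-/-, against -1.47, 0.03 and -0.25 on WT arrays, of which the first was much lower than the others. Its difference of 1.18 (SE 0.398) had an adjusted p of 0.685. At both probes every Irgm1-/- array was above every WT array, as for 5.99% of the 23237 probes tested, while 0.116% were called, all of them higher. Differences within the 2 slides were 1.20 and 1.14 at the probe at 1849 and 1.99 and 0.78 at the probe at 1286. The Irgm1-/- female alone exceeded the WT females by 1.24 at the probe at 1849 and by 1.43 at the probe at 1286.

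In colonic macrophages the probe at 1286 read -0.68, -0.10 and -0.73 on arrays labelled Irgm1-/-, against -2.14, -1.197 and -1.65 on WT arrays. The groups did not overlap, and the difference of 1.16 (SE 0.323) had an adjusted p of 0.174. With the mouse number as a block, the same difference passed with an adjusted p of 0.0298 by limma. The ground for the block was that same-numbered Irgm1-/- and WT arrays correlated in this tissue. That block called 1481 probes in all, against 38 (0.141% of 26978 tested) without it. Without the block, 0.00741% of all probes tested were called higher and 0.133% lower. At the probe at 1849 the values were 0.51, 0.95 and 0.47 on arrays labelled Irgm1-/-, against -0.70, 0.24 and -0.26 on WT arrays, for a difference of 0.88 (SE 0.308, adjusted p = 0.3, and 0.0604 with the block). Every Irgm1-/- array was above every WT array at both probes, as for 7.04% of all probes tested. Within slides the differences were 1.28 and 0.92 at the probe at 1286 and 0.96 and 0.73 at the probe at 1849.

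Irgm2 was higher in salivary gland labelled Irgm1-/-, while its groups overlapped in colonic macrophages. Its signal in salivary gland was -0.38, -1.45, -1.73 and -1.86 on Irgm1-/- arrays, against -3.70, -4.17, -3.69 and -3.85 on WT arrays. No Irgm1-/- array came near the WT range, and the difference was 2.50 (SE 0.306, adjusted p = 0.00281), or 5.65-fold. It was 3.02 and 1.98 within the slides, and 1 WT array was not well above background. In small intestine Irgm2 read 2.14, 2.31 and 2.55 on Irgm1-/- arrays, against 2.08, 1.39 and 0.46 on WT arrays. The groups did not overlap, but the highest WT array lay just below the lowest Irgm1-/- array. The difference of 1.03 (SE 0.404) had an adjusted p of 0.685, and it was 0.06 within one slide and 1.51 within the other. In macrophages the values were -2.44, -1.64 and -2.46 on Irgm1-/- arrays, against -2.75, -1.39 and -2.35 on WT arrays. These overlapped throughout, and the difference was -0.02 (SE 0.401, adjusted p = 0.995), with a 95% confidence interval from -0.94 to 0.90. Within the slides it was 0.03 and -0.11, and it took either sign when single arrays were left out, from -0.31 to 0.37.

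Igtp had the largest difference of the 4 probes in salivary gland. It read 1.53, 0.68, -0.16 and -0.03 on Irgm1-/- arrays, against -3.19, -3.36, -2.85 and -3.22 on WT arrays. The gap between the groups exceeded the range within either, and the difference was 3.66 (SE 0.344, adjusted p = 0.000744), or 12.6-fold. By size it ranked 25 among the 13651 probes tested, and by p it ranked 50. The repeated spots gave close values: over the 8 print positions with a usable spot on every array, the difference ran from 3.60 to 3.72. Within the slides it was 4.38 and 2.94. In small intestine Igtp read 2.60, 2.96 and 3.35 on Irgm1-/- arrays, against 2.16, 1.81 and 0.87 on WT arrays. Groups did not overlap, and the difference of 1.36 (SE 0.372) had an adjusted p of 0.629, with values of 0.44 and 1.81 within the slides. In macrophages the values were -0.87, -0.23 and -0.53 on Irgm1-/- arrays, against -2.50, -0.54 and -1.92 on WT arrays. The second WT array lay inside the Irgm1-/- range, and the difference of 1.11 (SE 0.475) had an adjusted p of 0.445, or 0.0911 with that block. It was 0.97 and 1.40 within the slides. Its 9 complete print positions gave differences from 0.62 to 1.33 there, a wider range than the 1.27 to 1.42 over 9 positions in small intestine.

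**Figure D2:**
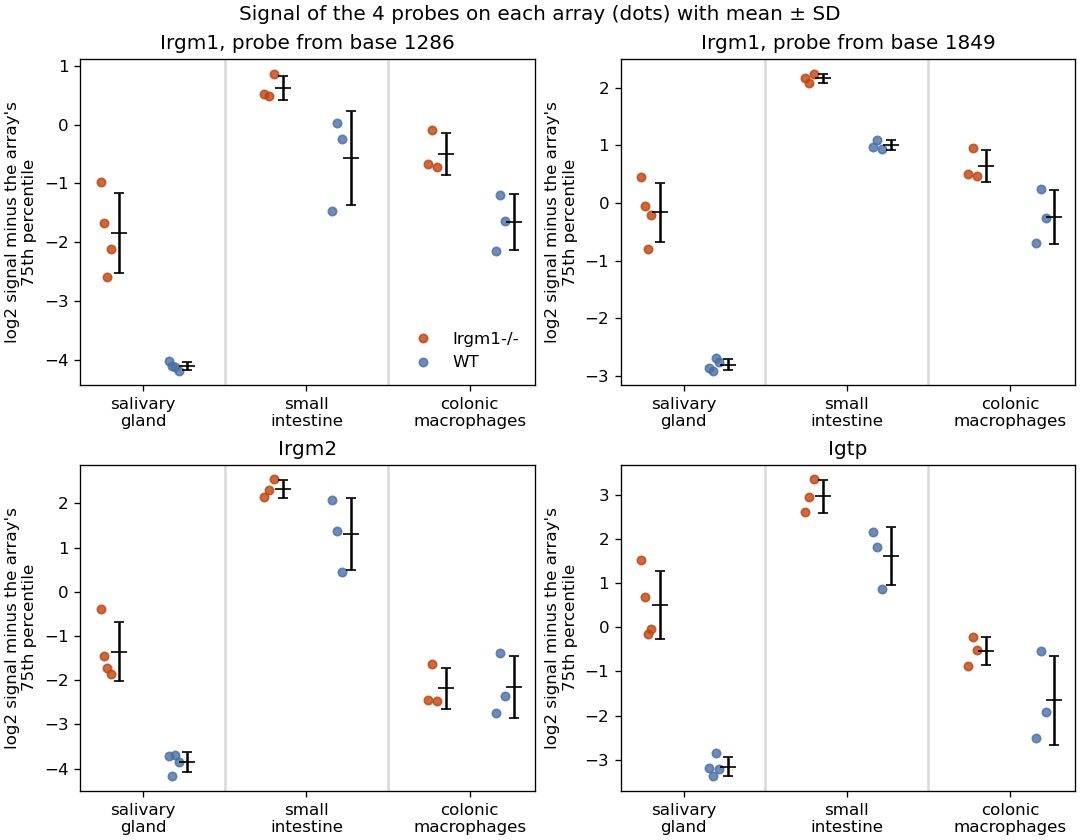
Scaled log2 signal of the 4 probes on each array, Irgm1-/- (left) and WT (right) in each tissue, with black bars at mean ± SD (n = 4 per group in salivary gland and 3 in the others). In salivary gland no group pair overlaps, while in macrophages the groups of Irgm2 and Igtp overlap.

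**Figure D3:**
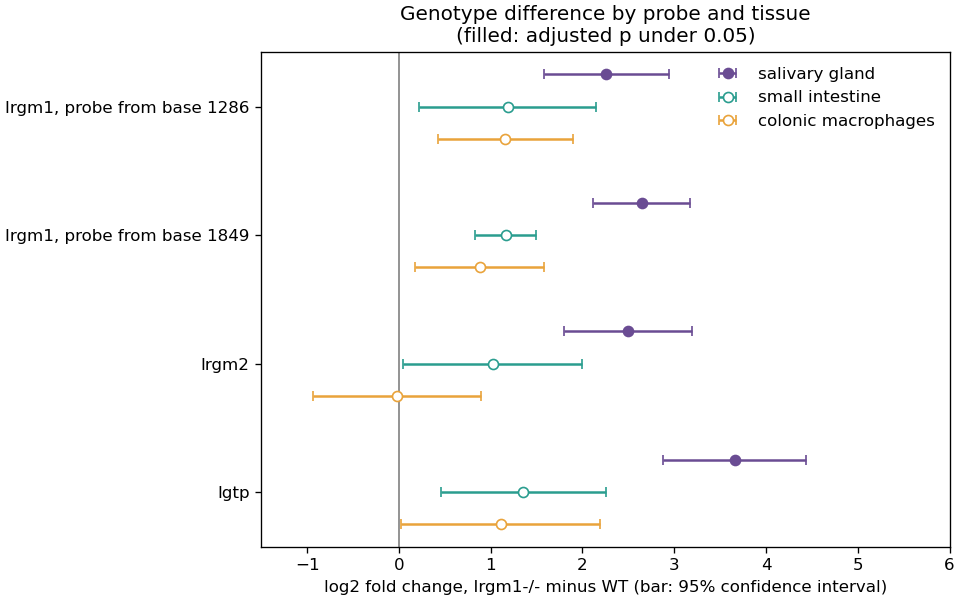
Log2 fold change, Irgm1-/- minus WT, of each probe in each tissue with its 95% confidence interval; filled points passed an adjusted p of 0.05. All 4 probes passed in salivary gland and none elsewhere, and the interval of Irgm2 in macrophages spans 0.

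Whether the genotype difference itself differed between tissues was tested in a single fit of the 20 arrays on one scale. That fit treated small intestine and macrophage arrays of the same animals as independent. With animal as a random block (estimated correlation within animals 0.0999), no call of these differences changed for the 4 probes. Between salivary gland and macrophages the genotype difference differed for 3 of the 4 probes, against 5.97% of the 12954 probes tested. The genotype effect in salivary gland minus that in macrophages was 2.59 (SE 0.56, adjusted p = 0.00963) for Irgm2, 2.62 (SE 0.64, adjusted p = 0.0208) for Igtp and 1.84 (SE 0.387, adjusted p = 0.00824) for the Irgm1 probe at 1849. For the Irgm1 probe at 1286 it was 1.17 (SE 0.575, adjusted p = 0.354). The Igtp call was lost with quantile normalization (1.88, adjusted p = 0.128), without macrophage Irgm1-/- array 1 (2.38, adjusted p = 0.0772) and without macrophage WT array 2 (2.04, adjusted p = 0.0652). Between salivary gland and small intestine the effects differed by 0.84 to 2.07 over the 4 probes, and between small intestine and macrophages by 0.33 to 1.36, with none past the threshold. Of all probes, 0.328% and 1.47% passed in those comparisons. For Irgm2 the interval of small intestine minus macrophages ran from 0.09 to 2.62 while the Igtp difference was 0.56 (SE 0.685).

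Levels in WT mice were also compared between tissues in the same fit, which treats arrays of the same animal as independent. There 72.6% of all probes were called between salivary gland and small intestine and 78.9% between small intestine and macrophages. Between salivary gland and macrophages 76.5% were called. On the scale common to the 20 arrays, WT Irgm2 averaged -3.97 ± 0.229 in salivary gland, -2.09 ± 0.68 in small intestine and -4.58 ± 0.776 in macrophages (SD, n = 4, 3 and 3). WT Igtp averaged -3.27 ± 0.215 in salivary gland, -1.78 ± 0.564 in small intestine and -4.08 ± 1.08 in macrophages. For both, the order was small intestine, then salivary gland, then macrophages. Small intestine stood above macrophages by 2.50 for Irgm2 (adjusted p = 3.95e-05) and by 2.30 for Igtp (adjusted p = 0.000344), and salivary gland minus small intestine was -1.88 (adjusted p = 4e-04) and -1.49 (adjusted p = 0.00715). The lower neighbours, salivary gland and macrophages, did not differ past the threshold on this scale (adjusted p of 0.165 and 0.113). At the Irgm1 probe at 1849 the WT averages were -2.92 ± 0.103 in salivary gland, -2.39 ± 0.24 in small intestine and -2.66 ± 0.562 in macrophages, and at the probe at 1286 they were -4.22 ± 0.067, -3.96 ± 0.986 and -4.09 ± 0.574. No pair of tissues passed the threshold at either Irgm1 probe, with adjusted p from 0.0934 to 0.795. The place of macrophages depends on the scale. With the percentile over all probes, WT small intestine stood above WT macrophages by 1.24 (adjusted p = 0.000272) at the Irgm1 probe at 1849 and by 1.097 (adjusted p = 0.014) at the probe at 1286. On that scale, WT salivary gland stood above WT macrophages by 1.82 for Irgm2 and 2.01 for Igtp, and the Irgm1 differences turned to 0.95 and 1.07, all past the threshold. In the Irgm1-/- mice the averages at the probe at 1849 were -0.28 ± 0.505 in salivary gland, -1.01 ± 0.131 in small intestine and -1.87 ± 0.297 in macrophages. Irgm1-/- Irgm2 averaged -1.48 ± 0.655, -0.84 ± 0.228 and -4.69 ± 0.478 in the same order of tissues, and Irgm1-/- Igtp 0.38 ± 0.762, -0.20 ± 0.391 and -3.05 ± 0.428.

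Ratios within an array set the members' differences side by side. The ratio of Igtp to Irgm2 within an array is free of the array's scale, but not of background or of how each probe responds. Irgm2 was well above background on 3 of the 4 WT salivary gland arrays. The difference of the ratio between genotypes was examined after the values above had been seen. In salivary gland the log2 ratio was 1.91, 2.13, 1.57 and 1.83 on Irgm1-/- arrays, against 0.51, 0.81, 0.84 and 0.64 on WT arrays. The groups did not overlap, and the difference of 1.16 had the smallest p that an exact two-sided permutation test of 4 against 4 can give, 0.0286, or 0.129 adjusted over the 9 ratios and tissues tested. In macrophages the ratio was 1.57, 1.41 and 1.94 on Irgm1-/- arrays, against 0.25, 0.85 and 0.42 on WT arrays. Here too no values overlapped, with a difference of 1.13, but 3 against 3 cannot go below an exact p of 0.1 (0.18 adjusted). The ratio in small intestine was 0.33 higher in Irgm1-/- mice, without overlap (exact p = 0.1). Igtp over Irgm1 (probe at 1849) was higher by 1.01 in salivary gland (exact permutation p = 0.0286, adjusted 0.129), by 0.19 in small intestine and by 0.23 in macrophages, with overlap in the last 2 tissues. Irgm1 over Irgm2 differed by 0.15 in salivary gland and by 0.14 in small intestine, with overlapping groups, and by 0.90 in macrophages (exact permutation p = 0.1), where it was 2.94, 2.60 and 2.93 on Irgm1-/- arrays, against 2.05, 1.63 and 2.09 on WT arrays. At the Irgm1 probe at 1286 the salivary gland difference was 2.26, below the 2.50 of Irgm2. The sign of Irgm1 over Irgm2 there thus depends on the probe. After adjustment none of the 9 passed the threshold. How many other pairs of probes had groups without overlap was not counted.

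**Figure D4:**
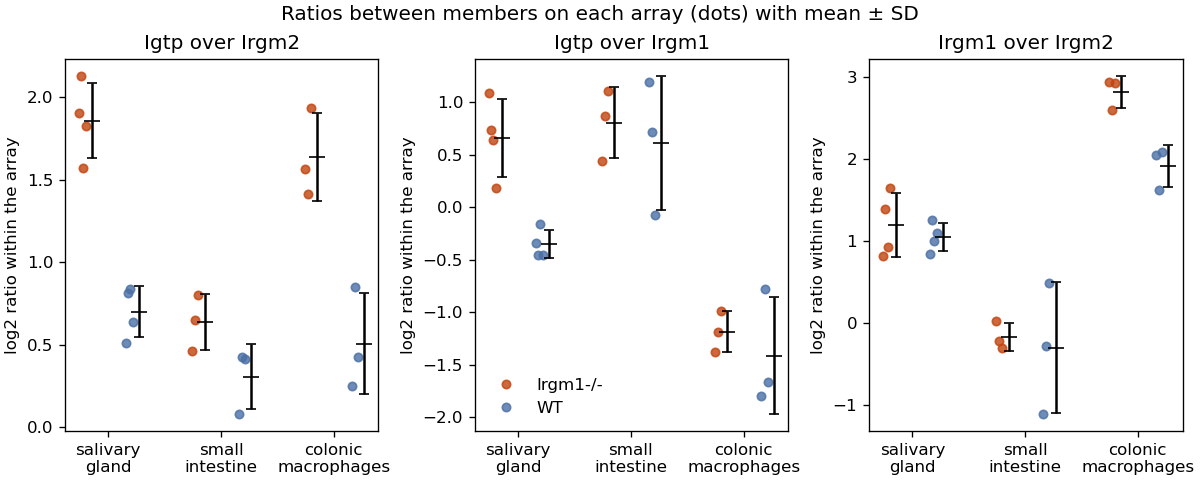
Log2 ratio between members within each array, Irgm1-/- (left) and WT (right) in each tissue, with black bars at mean ± SD (n = 4 per group in salivary gland and 3 in the others; Irgm1 is the probe at 1849). Igtp over Irgm2 is higher on every Irgm1-/- array than on any WT array within each tissue.

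Across the 20 arrays, after each tissue's mean was removed, the 4 probes varied together. These points share genotype, array and, for 6 mice, the animal, so the correlations are a description. Pearson's r was 0.953 between both Irgm1 probes, 0.973 between Igtp and the Irgm1 probe at 1849, 0.956 between Irgm2 and Igtp, and 0.809 between Irgm2 and the Irgm1 probe at 1286. When the mean of each genotype in each tissue was removed too, Irgm2 and Igtp still had r of 0.937, while Irgm2 and the Irgm1 probe at 1286 had 0.408. The 10440 genes compared had passed a detection filter in each tissue, which the arrays of a single genotype could satisfy. Those most like Irgm1 were Isg15 (r = 0.994), a ubiquitin-like modifier, Xaf1 (0.988), Ifit3b (0.986), Ifit3 (0.985) and Rsad2 (0.977), the antiviral enzyme viperin. Closest to Irgm2 were the DNA exonuclease gene Trex1 (0.965), the chemokine gene Cxcl10 (0.952), C4b (0.949), Parp10 (0.946) and Rnf31 (0.942). Igtp was nearest to Isg15 (0.983), Ifit3 (0.977), the complement gene C2 (0.976), Gbp3 (0.976) and Ddx58 (0.975), which encodes the RNA sensor RIG-I. Gbp3 was well above background on 4 Irgm1-/- and 0 WT salivary gland arrays. It passed the filter there through the Irgm1-/- arrays alone, and its r includes dim WT values.

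Genes of the same pathway were read from lists, each against the median of all probes tested in the tissue, 0.04 in salivary gland, -0.07 in small intestine and 0.09 in macrophages. Of 12 effector GTPases, which the regulatory members hold inactive, 6 passed the filter on low signal in salivary gland. Of these, Gm12250 and Gm4951 passed it through the Irgm1-/- arrays alone and had to differ, so they are given as values only. Of the other 4, 2 were called higher, against 2.12% of all probes tested, and Tgtp1 and Gm5431 were not. That share includes probes that passed the filter through a single genotype. Tgtp2 was higher by 3.34 (SE 0.409, adjusted p = 0.00281) and Ifi47 by 3.16 (SE 0.37, adjusted p = 0.00217). Being well above background on no WT salivary gland array, Gm12250 and Gm4951 have differences that are bounds, at least 9.53-fold and at least 4.99-fold. Each bound is the mean on Irgm1-/- arrays over the lowest signal called well above background, or the probe's own where higher, on WT arrays. The effector beside Irgm1, Gm5431, differed by 0.44 in salivary gland, 0.77 in small intestine and 0.62 in macrophages and was called in none. Tgtp1 and Tgtp2 are near-identical copies, so their probes may read each other. In small intestine 1 of 8 tested effectors was called, against 0.116% of all probes, and 6 had an unadjusted p under 0.05, against 6.51%. The one called was Gm4951, at 2.21 (SE 0.2, adjusted p = 0.0304 by limma). That call was lost in the fit that blocks on mouse number (adjusted p = 0.144), where 0.0043% of all probes were called. The list median was 1.36. In macrophages 0 of 11 were called by limma and 0 had an unadjusted p under 0.05, with a median of 0.34 and the largest differences -1.01 for Tgtp2 and 0.96 for Gm4841.

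Of 11 guanylate-binding proteins, the partners of the effectors at vacuoles, 4 passed the filter in salivary gland, Gbp3 of them through the Irgm1-/- arrays alone. Of the other 3, 1 was called higher, against 2.12% of all probes tested. This was Gbp2, higher by 3.26 (SE 0.453, adjusted p = 0.00567 by limma). Gbp3, dim on all WT arrays, was at least 9.51-fold higher. Small intestine had 11 tested, 0 called by limma (7 at an unadjusted p under 0.05, as for 6.51% of all probes tested) and a median of 1.12, with values of 2.30 for Gbp7 and 1.88 for Gbp6. In macrophages 0 of 7 were called, 0 had an unadjusted p under 0.05 and the median was -0.02, with 1.12 for Gbp3 and -0.40 for Gbp2. Among 18 interferon receptors, kinases and transcription factors, 14 passed the filter in salivary gland. Of these, 12 were above background on at least 1 array of both genotypes. Of the 12, 5 were called higher, against the same 2.12% of all probes. The other 2, Irf7 and Socs1, passed through the Irgm1-/- arrays alone and are given as bounds. Irf7, a transcription factor for interferon genes, was at least 11.7-fold higher. Usp18, which removes Isg15 and damps type I receptor signalling, was higher by 3.37 (SE 0.146, adjusted p = 2.59e-05). Socs1, another brake, was at least 2.32-fold higher. Stat2, a signal transducer of the type I interferon receptor, was higher by 1.63 (SE 0.18, adjusted p = 0.00162). In small intestine only Usp18 passed among the 18 tested, against 0.116% of all probes, at 2.68 (SE 0.242, adjusted p = 0.0304 by limma). That call was also lost when mouse number was blocked on (adjusted p = 0.153). Of the 18, 5 had an unadjusted p under 0.05, against 6.51% of all probes. Macrophages had 0 of 18 called (5 at an unadjusted p under 0.05, as for 10.8% of all probes), with 2.54 for Usp18 (adjusted p = 0.116) and 1.74 for Irf7 (adjusted p = 0.0847). In the macrophage fit that blocks on mouse number, which called 5.49% of all probes, both passed (adjusted p = 0.0201 for Usp18 and 0.0168 for Irf7), as did Ifnar2, a receptor chain, at -1.38 (adjusted p = 0.024).

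Of 15 interferon genes, 2 were tested in salivary gland, 3 in small intestine and 11 in macrophages, and limma called 0 (at an unadjusted p under 0.05, 1, 0 and 1), with -0.33 for Ifnab and -0.28 for Ifnl3 in salivary gland, 0.48 for Ifnl3 and -0.16 for Ifnab in small intestine, and -1.43 for Ifnb1 (adjusted p = 0.0209 in the blocked fit) and 0.70 for Ifna11 in macrophages. Of 15 autophagy genes, which make and attach the LC3 family and start the phagophore, 13, 15 and 14 were tested in these tissues and limma called 0 (3, 0 and 1 at an unadjusted p under 0.05, against 20.6%, 6.51% and 10.8% of all probes), with medians of 0.00, -0.10 and -0.13. Sqstm1, the receptor p62, was at 0.62 in salivary gland, 0.45 in small intestine and -0.47 in macrophages, with adjusted p of 0.264, 0.685 and 0.696. The ISRE-like letters were found in 4 of 7 effector promoters given by RefSeq, in 5 of 5 of the guanylate-binding proteins, in 8 of 15 of the interferons, in 3 of 15 of the receptors, kinases and factors and in 0 of 11 of the autophagy genes, against 3.44% of all promoters.

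**Figure D5:**
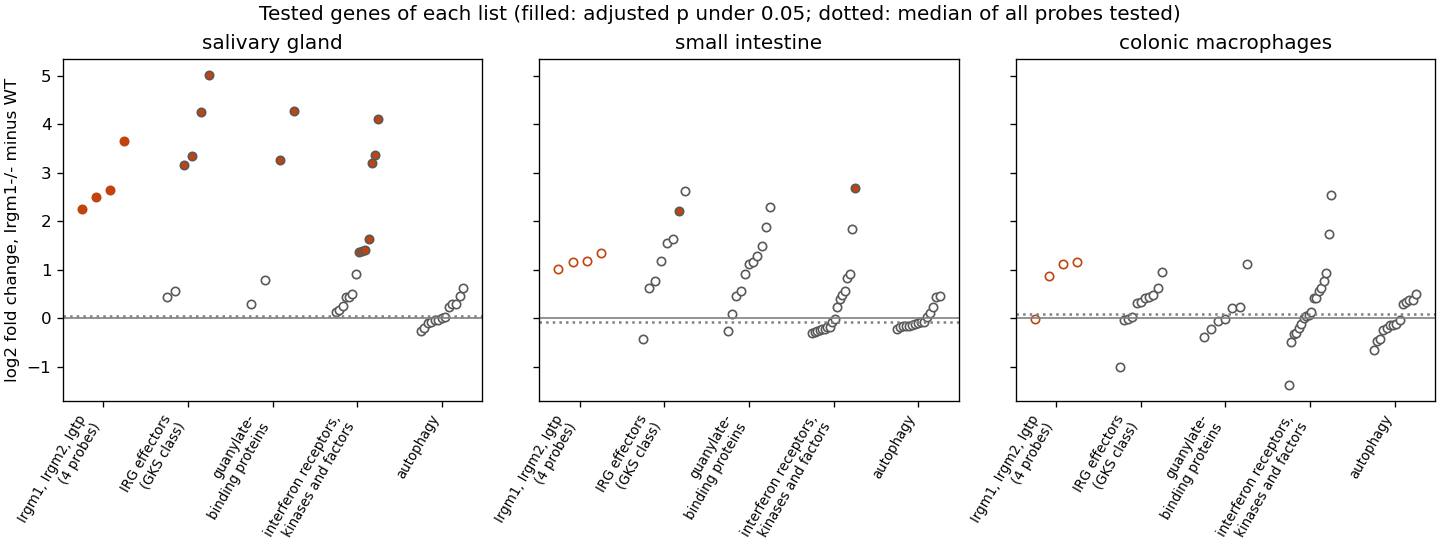
Log2 fold change, Irgm1-/- minus WT, of the 4 probes and of the tested genes of each list in each tissue; filled points passed an adjusted p of 0.05 and the dotted line is the median of all probes tested. Filled points include 5 genes dim on every WT salivary gland array (Gm12250, Gm4951, Gbp3, Irf7 and Socs1), whose fitted values are no measured fold; 0 of 13 autophagy genes passed there.

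Cell type markers were read beside these values. In salivary gland the mean over 9 tested macrophage markers ran from -0.30 to 0.30 on Irgm1-/- arrays and from -0.84 to -0.65 on WT arrays, and 4 of the 9 (C1qa, C1qb, C1qc and Mrc1) were called higher, against 2.12% of all probes, with a median of 0.82 over the list. Gzma, a granzyme of T and NK cells, was higher by 2.50 there (adjusted p = 0.000881), the only one called of 5 tested markers of those cells, and 1 of 10 acinar markers, Smgc, was lower, at -0.87 (adjusted p = 0.0494), against 0.19% of all probes. In small intestine the mean over macrophage markers ran from 1.05 to 1.24 on Irgm1-/- arrays and from 0.62 to 0.97 on WT arrays, over 11 markers, while enterocyte markers ran from 3.91 to 4.48 on Irgm1-/- arrays and from 4.54 to 4.99 on WT arrays, with 0 called in either list. In macrophage samples the macrophage markers ran from -0.70 to 0.32 on Irgm1-/- arrays and from -0.05 to 1.37 on WT arrays, which overlap, with a median difference of -1.23 over 11 markers and 0 called (3 at an unadjusted p under 0.05, and Mrc1 was too dim to be tested). Goblet cell markers in those samples ran from 3.97 to 4.63 on Irgm1-/- arrays and from 3.51 to 3.87 on WT arrays, and smooth muscle markers from -1.45 to -0.50 on Irgm1-/- arrays and from 0.25 to 1.0 on WT arrays. The blocked fit of these samples called 5.49% of all probes, counted in either direction. In it 5 of the 11 macrophage markers, 4 of 6 smooth muscle markers and 1 of 7 acinar markers were called lower. Of 7 goblet cell markers, 2 were called higher. The acinar marker was Amy1, at -5.23 (limma adjusted p = 0.00548). It was also called without the block (adjusted p = 0.000501), where 0.133% of all probes were called lower. The part of these cells in the values of Irgm1, Irgm2 and Igtp was not tested.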

How the data were processed

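RNA from 3 tissues was hybridized to 20 single-colour arrays. The array design was 026655 (annotation build mm9), scanned spots being quantified by Agilent Feature Extraction 11.5.1.1, per the file headers. That program had subtracted background and detrended each array, and the intensity columns deposited are linear and carry no normalization across arrays. The deposited flags per spot (above background, saturated, outlier) were used as other columns. Of 43020 non-control spots, 0.434% were outliers and left out, and 0 were saturated. The authors also deposited a processed table of intensity values with no stated normalization, used as an alternative only.

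Spots were averaged per probe on the log2 scale and centred on the 75th percentile of their array, taken in salivary gland over the 9570 probes detected on all 8 arrays and in the other tissues over all 39429. Probes entered a test if detected above background on no fewer arrays than a group holds. Genotypes were compared per tissue with limma 3.58.1 (R 4.3.3, version 1.17.8 of data.table) with Benjamini-Hochberg adjustment over all probes tested and a threshold of 0.05. Tissues were compared in one fit of 20 arrays scaled over the 8600 probes detected on all of them. Names came from RefSeq (GRCm38.p6): 27508 probes matched by accession and 11921 kept the file's name. Ratios were compared with exact two-sided permutation tests. The members and the gene lists were chosen with earlier results of these data known. Named genes were all members, up to 4 called members of each list with the largest change per tissue or 2 as values where none passed, and the 5 genes most correlated with each member.

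A mouse number marks an Irgm1-/- and a WT array, from different animals, and not always the same animal in both tissues. After removal of group means, the 2 arrays of a number had correlations of 0.191, 0.228 and 0.333 in small intestine. For macrophages these were 0.458, 0.228 and 0.629. Same-numbered Irgm1-/- and WT mice of these tissues also had the same age and were on the same slide. The reported fits ignore the mouse number. On the ground of these correlations, seen in the data, the values with it as a block are given beside results in these tissues where a call changes. In salivary gland the correlations were 0.188, -0.158, -0.542 and 0.402. Tested on simulated data with the spread of each tissue, a log2 change of 2 was recovered for 92% of changed probes in salivary gland, 57% in small intestine and 39% in macrophages, and a change of 1 for 62%, 12% and 0%. Slide, mouse number, shared animals, sex, background correction, scaling, filters, probe summary and left-out arrays were tried as alternatives.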

Additional observations from a re-analysis of the deposited data

Results flagged for a closer look

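The genotype difference differed between salivary gland and colonic macrophages, by a test of the difference itself, for 3 probes: the Irgm1 probe at 1849 (1.84), Irgm2 (2.59) and Igtp (2.62), each as the effect in salivary gland minus that in macrophages on the log2 scale. No array stood far from the others of its group at any of the 4 probes in salivary gland by Dixon's criterion. Groups of 3 arrays were not tested for it.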

How the results depend on the processing

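The number of arrays, 3 or 4 in a group, limits the precision. In salivary gland all 4 probes kept their direction and call under every alternative in which they were tested. Differences ran from 1.45 to 2.51 (Irgm1 probe at 1286), 2.26 to 2.86 (probe at 1849), 1.85 to 2.66 (Irgm2) and 3.21 to 3.88 (Igtp). The Irgm1 probe at 1286 and Irgm2 dropped out of the setting with probes detected on every array, as neither was above background on every WT array. The Irgm1 probe at 1849 in small intestine passed at the same 1.16 with probes detected on every array and with an intensity trend. It passed in no other setting. The Irgm1 probe at 1286 in macrophages passed at 1.16 with the replicate block alone. The replicate block changed no other member's call. The cause of the changes below was not tested, except that settings on fewer arrays or probes test less.

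Salivary gland counts of called probes, 316 in the report, were 185 scaled to the median, 162 with no filter, 138 for probes detected on every array, 703 with slide as a block, 734 with the replicate block and 203 for the mean of a gene's probes. In small intestine, with 27, they were 1 with normexp, 15 with no filter, 1 with the replicate block, 13 from the authors' table, 0 for females alone (limma, 1 against 3) and 42 in the fit of 20 arrays. In macrophages, with 38, they were 311 with normexp, 123 scaled to the median, 63 with quantile normalization, 14 for probes detected on every array, 1481 with the replicate block, 61 from the authors' table, 15 for females alone and 935 in the fit of 20 arrays. Leaving out 1 array gave 189 (without Irgm1-/- array 2) to 617 (without Irgm1-/- array 4) in salivary gland. That range was 1 to 48 for small intestine, where every array moved the count by over 1.5 times, and 19 to 62 for macrophages (21, 23 and 62 without Irgm1-/- arrays 1, 2 and 3, and 19 without WT array 2).

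Among tissue differences in the genotype effect, the Igtp difference of salivary gland minus macrophages fell short with quantile normalization (1.88) and ran from 2.04 to 3.10 without single arrays. Small intestine minus macrophages turned to -0.51 with quantile normalization for the Irgm1 probe at 1286, and without single arrays ran from -0.23 to 0.69 there and from -0.022 to 1.05 for Igtp. Without single arrays, differences that did not pass ran in small intestine from 0.73 (without WT array 1) to 1.48 for the Irgm1 probe at 1286, from 0.60 (without WT array 3) to 1.41 for Irgm2 and from 0.98 to 1.63 for Igtp, and in macrophages from 0.69 (without WT array 1) to 1.67 (without WT array 2) for Igtp. Irgm2 in macrophages ran from -0.31 to 0.37 and turned to 0.11, 0.12 and 0.37 without Irgm1-/- array 1, Irgm1-/- array 3 and WT array 2.

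In WT mice, several level differences that did not pass the test took either sign without single arrays. At the Irgm1 probe at 1286 these ran from -0.82 to 0.10 for salivary gland minus small intestine, from -0.23 to 0.69 for small intestine minus macrophages (with -0.08 and -0.19 among them) and from -0.45 to 0.12 for salivary gland minus macrophages. At the probe at 1849 the last 2 ran from -0.033 to 0.53 and from -0.55 to 0.007. Salivary gland minus macrophages turned to 1.07 and 0.95 at these probes with the percentile of all probes, and to 1.67 and 0.97 with quantile normalization. Small intestine minus macrophages passed at both probes under these scalings, at 1.76 and 1.18 with quantile normalization. Within-array ratios, compared after the data were seen, ran without single arrays from -0.004 to 0.27 for Irgm1 over Irgm2 in salivary gland, from -0.27 to 0.53 for it in small intestine, and from -0.15 to 0.49 for Igtp over Irgm1 in small intestine. Igtp over Irgm1 in salivary gland ran from 0.87 to 1.17 and lost its unadjusted p without any 1 WT array, with values of 0.98 to 1.08.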
